A study of Mus musculus with 4 samples.

Results

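The nuclear genes for the subunits of the mitochondrial respiratory chain and ATP synthase were described in mouse T cells, complex by complex. Genes were taken by symbol: Ndufa, Ndufb, Ndufc, Ndufs or Ndufv followed by a number, Ndufab1, Sdha to Sdhd, and symbols that begin with Uqcr, Cyc1, Atp5, or Cox4 to Cox8 followed by a, b, c or i. Symbols that contain -ps, a mark of pseudogenes, were left out, which removed 7 of 101 matches and left 94 of the 50600 genes counted. Of the 94 genes, 76 encode common subunits of the enzymes, 36 in complex I, 4 in complex II, 9 in complex III, 11 in complex IV and 16 in complex V. Another 8 encode tissue-restricted relatives of complex IV subunits, 6 encode factors that share the name but are not subunits (Sdhaf1, Sdhaf2, Sdhaf3, Sdhaf4, Cox7a2l and Atp5s), and 4 are processed pseudogenes with a gene-like name (Cox6c2, Ndufa11b, Ndufb4c and Ndufs6b). Ndufb1 was not analysed here.

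The 4 RNA-seq libraries form a single group, biological replicates 1 to 4 of primary T cells from C57BL/6NJ mice with no allele or agent named in the labels. The file headers add the words Th0, activated and 48h, which the labels do not state, and the linked differentiation protocol is named for CD4+ cells. All 4 carry the same donor identifier, sex was not collected and age is unknown, so a p-value here reflects the spread of these 4 samples alone, which may be technical. Per the labels the assay was total RNA-seq, but the protocol linked for library construction names polyadenylated RNA.

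Replicates 1 to 4 held 56904311, 45110199, 127755788 and 53379135 counts, so replicate 3 was the deepest. The T cell label was checked against marker genes: 6 of 6 T cell markers lay above 1 CPM (counts scaled to a fixed library total), with Cd4 at 931 ± 9.8 CPM (SD, n = 4). Cd8a lay at 0.28 CPM and Cd8b1 at 9.62 CPM. None of 3 B cell, 2 natural killer, 2 erythroid or 3 muscle markers passed the test against 1 CPM. Of 4 myeloid markers Adgre1 passed, at 2.60 CPM, while Lyz2 had no count and Csf1r and Itgam lay below 0.07 CPM on average.

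The respiratory chain passes electrons from NADH through complex I, or from succinate through complex II, to ubiquinone, then through complex III and cytochrome c to complex IV, which reduces oxygen. Complexes I, III and IV pump protons across the inner mitochondrial membrane, and complex V, the ATP synthase, uses the returning protons to make ATP. Most subunits are encoded in the nucleus and imported, while a small core set of complexes I, III, IV and V is encoded by mitochondrial DNA. T cells raise both glycolysis and respiration when they are activated.

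Nearly the whole nuclear set was detected, and at high levels. Of the 94 genes, 90 had a count and 83 lay above 1 CPM by limma (Benjamini-Hochberg adjusted p below 0.05), beside 47.4% of the 23365 genes tested. The 83 were all 76 common subunits, the 6 factors and Cox6b2. Another 7 lay below 1 CPM, beside 48.3% of genes tested, namely Cox4i2, Cox6a2, Cox7a1 and the 4 pseudogenes. Cox7b2, Cox8b, Cox8c and Ndufa4l2 had no count in any library. A count of 3 over all 4 libraries, the limit that a count of 0 allows, corresponds to 0.0106 CPM, for counting error only. Against 10 CPM, 73 of the 76 common subunits passed, beside 36.4% of genes tested. Ndufb4 and Ndufs5 lay below 10 CPM and Atp5l on neither side.

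Levels were compared between genes as TPM, counts per unit of gene length scaled to a fixed sum, computed here from the counts and each gene's summed exon length. The 76 common subunits had a median of 192 TPM, against 14.2 TPM for the 15076 protein-coding genes with a count, and 59 of the 76 reached 100 TPM. Their median percentile was 93.5, and 48 of 76 fell in the top 10 percent of those genes. They ranged from 5.64 TPM for Atp5l to 1770.5 TPM for Atp5b, 314-fold apart, while the coefficient of variation over libraries was between 1.28 and 12.1% with a median of 5.66%. The 94 genes together took 1.21, 1.15, 1.11 and 1.15% of all counts in replicates 1 to 4, of which complex V took 0.55%, complex I 0.226%, complex IV 0.149%, complex III 0.140% and complex II 0.0883% on average.

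**Figure D1:**
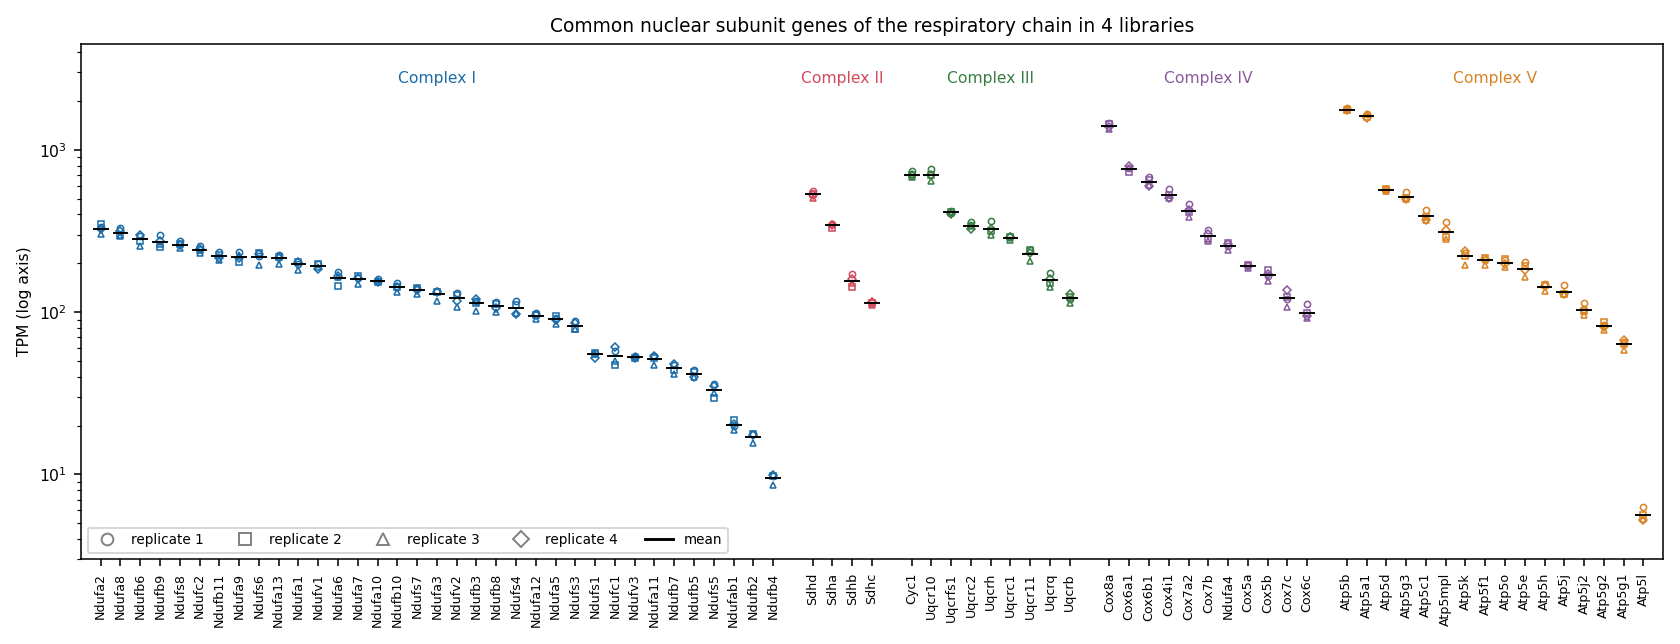
TPM (log axis) of the common subunit genes, with 1 of the 76 not drawn, in each of 4 libraries, grouped by complex and ordered by mean. Markers are replicates and bars are means. Atp5b at 1770.5 TPM, Atp5a1 at 1618 TPM and Cox8a at 1410.2 TPM lie highest, and Atp5l at 5.64 TPM and Ndufb4 at 9.50 TPM lowest.

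By complex, the median common subunit was highest in complex III, at 358, 315, 297 and 324 TPM in replicates 1 to 4. Complex IV followed at 322, 281, 276 and 303 TPM, then complex II at 259, 237, 249 and 252 TPM and complex V at 210.1, 215, 192 and 205 TPM. Complex I was lowest at 138, 137, 124 and 135 TPM. The order III, IV, II, V, I held in 4 of 4 libraries, and the means ± SD were 324 ± 25.8, 296 ± 21.0, 249.6 ± 9.16, 205 ± 9.97 and 134 ± 6.51 TPM. The ranges of complexes III and IV over the libraries overlapped, and the range of complex I overlapped with none. With the 8 tissue-restricted genes counted in, the median of complex IV was 122 TPM. Summed exon length overstates the length of a typical mRNA for many of these genes, since it joins all annotated exons: it was at least 2 times the median protein-coding transcript length for 37 of 76, and 12.4 times for Ndufs1. With that transcript length in its place the medians were 332 for complex III, 287 for V, 285 for IV, 221 for II and 116 for I, with III highest and I lowest in 4 of 4 libraries, V above II in 4 of 4 and V above IV in 3 of 4. Transcript models include fragments, and the coding sequence was longer than the median transcript for 9 of 76 genes, so neither length is exact.

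**Figure D2:**
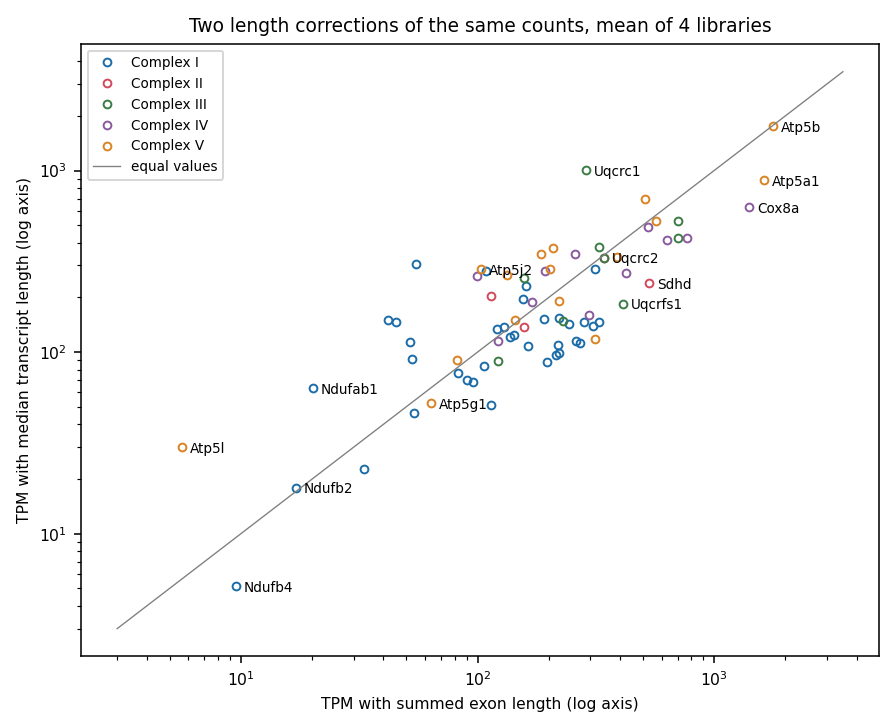
TPM from summed exon length (x, log axis) against TPM from the median protein-coding transcript length (y, log axis), mean of 4 libraries, for 76 common subunits coloured by complex. The line marks equal values. Uqcrc1 moves from 287 to 1001 TPM and Atp5l from 5.64 to 30.0 TPM, and Cox8a from 1410.2 down to 627 TPM.

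Complex I, the NADH dehydrogenase, was covered by 7 nuclear core subunits that carry electrons and 29 accessory subunits. The core median was 137 ± 5.4 TPM (SD, n = 4) and the accessory median 129.8 ± 7.9 TPM, with the core higher in 4 of 4 libraries, and with the median transcript length they were 133 and 109.5 TPM. Within the accessory set the matrix arm had a median of 154.9 ± 9.7 TPM, above the core in 4 of 4 libraries. With the median transcript length it was 103 TPM, below the core. The membrane arm had 129.8 ± 7.9 TPM, and 116 TPM with the median transcript length. Among core genes Ndufs8, an iron-sulfur protein, stood at 275, 262, 248 and 259 TPM in replicates 1 to 4, and Ndufv1, which binds NADH, had a mean of 192 TPM. Ndufs1, the largest iron-sulfur subunit, was lowest of the core at 55.8, 55.8, 55.6 and 52.4 TPM. Its summed exon length is 8086 bases against a coding length of 2181 bases, and with the median transcript length, 651 bases, it stood at 306 TPM. The 9 accessory genes of the matrix arm ran from 52.9 TPM (Ndufv3) to 328 TPM (Ndufa2), and the 19 of the membrane arm from 9.50 TPM (Ndufb4) to 309 TPM (Ndufa8). Ndufab1, the acyl carrier protein found in both arms, stood at 19.8, 21.5, 18.9 and 20.3 TPM. Ndufb4 stood at 9.73, 9.72, 8.62 and 9.93 TPM, under every other common subunit of complex I in 4 of 4 libraries.

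Complex II, succinate dehydrogenase, is the only complex here with no mitochondrially encoded subunit. Its flavoprotein Sdha stood at 348, 331, 347 and 344 TPM and its iron-sulfur subunit Sdhb at 171, 144, 152 and 160.3 TPM. Sdha exceeded Sdhb in 4 of 4 libraries, by 1.13 ± 0.09 on the log2 scale (SD, exact two-sided sign-flip permutation test p = 0.13, the smallest that 4 libraries allow and the value for each pair named here). With the summed exon length the membrane anchors differed more, with Sdhd at 532 ± 22.3 TPM and Sdhc at 114 ± 2.4 TPM. Without length correction the anchors differed less. As log2 distance from 1 CPM, Sdhd lay at 7.44 and Sdhc at 6.62, against 8.46 for Sdha and 6.54 for Sdhb. With the median transcript length Sdhd and Sdhc ranked 792 and 947 among 15076 protein-coding genes, and Sdha and Sdhb 540 and 1463. The 4 assembly factors were lower than all 4 subunits, from 4.46 TPM for Sdhaf3 to 52.6 TPM for Sdhaf2.

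In complex III, the cytochrome bc1 complex, Cyc1, which carries the haem of cytochrome c1, stood at 737, 698, 685 and 698 TPM. Uqcr10, a small subunit, stood at 764, 702, 644 and 704 TPM, above Cyc1 in replicates 1, 2 and 4. The ranges of these leading genes overlapped, with means of 704.4 TPM for Cyc1 and 703.6 TPM for Uqcr10. With the median transcript length Uqcrc1 was highest, at rank 107 of 15076 protein-coding genes, and Cyc1 had rank 276. The Rieske protein Uqcrfs1 had 412 ± 7.7 TPM. The core proteins Uqcrc1 and Uqcrc2 had 287 ± 7.2 and 341 ± 14.0 TPM, with Uqcrc2 higher in 4 of 4 libraries (log2 ratio of Uqcrc1 over Uqcrc2 -0.25 ± 0.06). This order turned to 0.45 without length correction and to 1.59 with the median transcript length, which for Uqcrc1 is 533 bases beside a coding length of 1440 bases. The remaining small subunits Uqcrh, Uqcr11, Uqcrq and Uqcrb had means of 325, 229.7, 158 and 122 TPM.

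Complex V had the widest range. Its catalytic head F1 had a median of 568 ± 7.6 TPM, the stalk 173 ± 8.3 TPM and the membrane part Fo 104 ± 7.4 TPM, an order seen in 4 of 4 libraries. Of the coding stretches of 50 bases, at least 99.7% recur in other genes for Atp5l, Atp5g1 and Atp5g2 of Fo. For Atp5f1 and Atp5h of the stalk the shares were 50.1 and 67.1%. The part of recurrence in this order was not tested. Atp5b, the catalytic beta subunit, stood at 1803, 1757, 1767 and 1754 TPM and ranked 36 among 15076 protein-coding genes. Atp5a1, the alpha subunit, stood at 1664, 1587, 1657 and 1566 TPM and ranked 43. Atp5b exceeded Atp5a1 in 4 of 4 libraries by 0.13 ± 0.03 on the log2 scale, and by 0.99 with the transcript length. Of the other F1 genes Atp5d had 568 TPM, the central shaft gene Atp5c1 389 TPM and Atp5e 185 TPM. The stalk genes Atp5f1, Atp5o, Atp5h and Atp5j lay between 134 and 209 TPM. In Fo, Atp5mpl had 313 TPM, Atp5k 221 TPM and Atp5j2 104 TPM, while Atp5l stood at 6.31, 5.65, 5.34 and 5.25 TPM.

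The ring of Fo is built from c subunits, which 3 genes encode with the same mature protein and different import sequences. Atp5g3 stood at 550.0, 503, 495 and 500.2 TPM, Atp5g2 at 82.9, 87.1, 77.2 and 80.6 TPM, and Atp5g1 at 65.1, 63.6, 58.1 and 66.9 TPM. Atp5g3 was higher than both in 4 of 4 libraries, 8.06-fold over Atp5g1 and 6.24-fold over Atp5g2 (log2 ratios of the others over it -3.01 ± 0.09 and -2.64 ± 0.09). The size rested on the length used: the log2 ratio of Atp5g1 over Atp5g3 was -1.84 in CPM and -3.74 with the median transcript length, and that of Atp5g2 over Atp5g3 was -3.02 and -2.95. Between the lower pair the direction rested on length: Atp5g1 over Atp5g2 was -0.37 ± 0.08 in TPM and 1.18 in CPM. The coding sequences also recur in other genes to unlike degrees. The share of stretches of 50 bases was 99.7% for Atp5g1, 100% for Atp5g2 and 0% for Atp5g3. Its part in these ratios was not tested.

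Complex IV, cytochrome c oxidase, is the complex whose nuclear subunits have tissue-restricted relatives. The form named for most tissues predominated in each case. Cox8a stood at 1471, 1435, 1347 and 1387 TPM, while Cox8b, of heart and skeletal muscle, and Cox8c, of testis, had no count. Among common subunits Cox8a lay below Atp5b and Atp5a1 with the summed exon length, and below Uqcrc1 and Atp5g3 as well with the median transcript length. It was at least 13757-fold over Cox8b and at least 18189-fold over Cox8c, bounds that set the absent gene at 3 counts over the group. Likewise Cox7b was at least 4328-fold over the testis gene Cox7b2. Ndufa4, a complex IV subunit despite its name, stood at 256, 267, 242 and 264 TPM, at least 7589-fold over Ndufa4l2, a relative induced by low oxygen.

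The other relatives had some counts. Cox4i2, known from lung, had 10 counts in all against 66449 for Cox4i1, which stood at 574, 525, 504 and 502 TPM, a log2 ratio of 11.2 ± 1.01. Cox6a2, a muscle form, stood at 2.38, 2.57, 2.56 and 1.42 TPM against 768 ± 27.3 TPM for Cox6a1, a log2 ratio of 8.40 ± 0.43. Cox7a1, also of muscle, stood at 4.03, 0.992, 1.58 and 4.08 TPM against 422 ± 30.9 TPM for Cox7a2, a ratio of 7.47 ± 0.90. Cox6b2, of testis, stood at 7.14, 9.45, 8.12 and 6.78 TPM, the highest of the restricted genes, against 633 ± 38.4 TPM for Cox6b1, a ratio of 6.32 ± 0.21. In each pair the common form was higher in 4 of 4 libraries, with no overlap. Cox7a2l, counted among the factors and not the subunits, stood at 259, 234, 219 and 229 TPM, 0.85 ± 0.04 on the log2 scale below Cox7a2. Cox6a2 and Cox7a1 passed 1 TPM although they lay below 1 CPM.

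**Figure D3:**
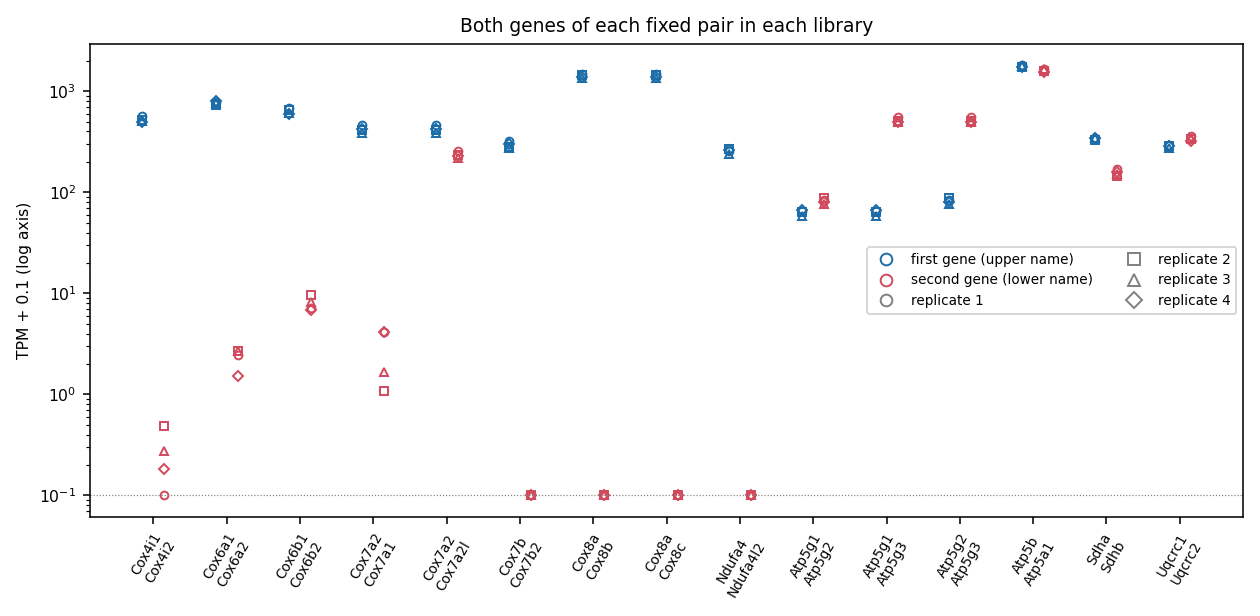
TPM + 0.1 (log axis) of both genes in each of 15 pairs, per library. The dotted line marks 0 TPM, where Cox7b2, Cox8b, Cox8c and Ndufa4l2 lie in 4 of 4 libraries, while Cox6b2 at 6.78 to 9.45 TPM is the highest of the tissue-restricted genes.

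Some of the lowest common subunits had coding sequences that recur elsewhere in the transcriptome. The count command sets no option for multi-mapped reads or for reads shared by overlapping genes, and by default the tool drops both. As a measure of recurrence, each stretch of 50 bases in a member's coding sequence was looked up in the GENCODE M21 transcripts of all genes at other places. Every stretch was found elsewhere for Atp5l, Ndufb4, Atp5g2 and Cox7c, and 99.8% of stretches for Ndufab1, 99.7% for Atp5g1, 72.9% for Uqcrb, 72.5% for Ndufs5 and 69.8% for Ndufa12. Over the whole transcript the share was lower for all of these but Atp5g2, which stayed at 100%. It was 31.2% for Ndufab1, 37% for Ndufb4, 41.2% for Ndufs5 and 43.2% for Uqcrb. For Cox7c, Ndufa12, Atp5g1 and Atp5l it was 53, 53.8, 66 and 68.5%. The 13 common subunits with at least 50% had a median of 94.95 ± 3.8 TPM, and the other 63 had 217 ± 13.9 TPM. The 3 lowest by CPM, Ndufb4 at 3.24, Ndufs5 at 8.27 and Atp5l at 10.6, were all among the 13, and Atp5l had 8 other genes that matched at least 50% of its coding sequence at 95% identity, 7 of them pseudogenes. Levels of the 13 are uncertain for this reason, and its part in their rank was not tested. Low level also occurred with little or no recurrence, as for Ndufb2 at 17.1 TPM with 1.13% shared, lower by TPM than Ndufs5 at 33 TPM. The next lowest by CPM after the 3, namely Ndufc1, Ndufa1, Ndufb3, Ndufa6, Ndufa5 and Ndufb2, had 0 to 18.3% shared.

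**Figure D4:**
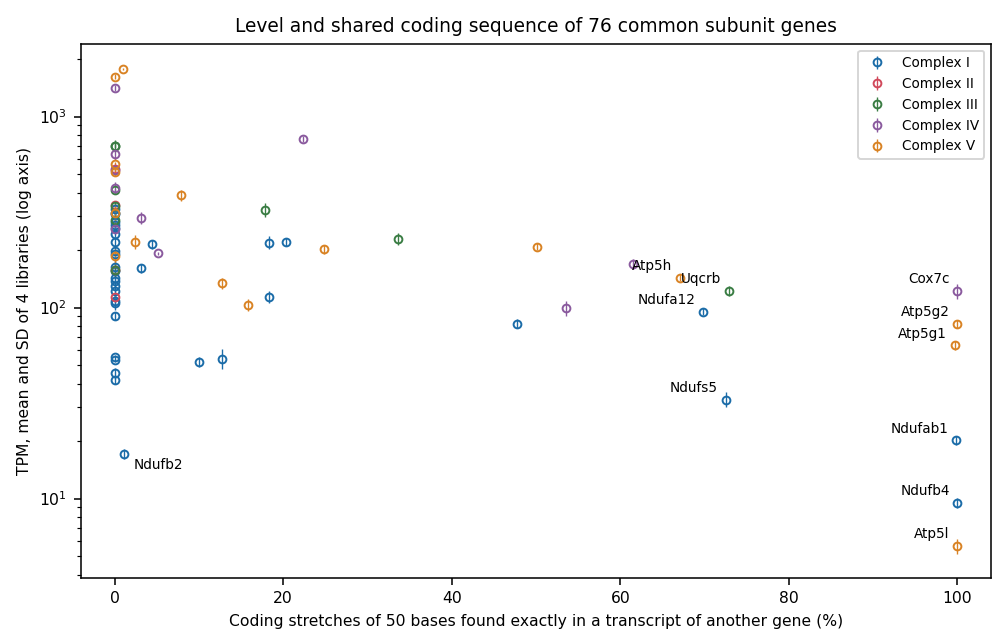
Share of coding stretches of 50 bases found in a transcript of a gene elsewhere (x, percent) against mean TPM with SD of 4 libraries (y, log axis) for 76 common subunits coloured by complex. Atp5l, Ndufb4 and Ndufab1 lie at 99.8 to 100% with 20.2 TPM or less, while Cox7c lies at 100% with 122 TPM.

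The coding starts of contrasting genes, up to 300 bases from the start codon, are shown 5′ to 3′ from GENCODE M21 because they show how completely the sequence recurs. Capitals mark bases inside a stretch of 50 that is identical in a gene elsewhere. Atp5l lies at chr9:44912557-44920742, Ndufs5 at chr4:123712710-123718202 and Uqcr10 at chr11:4701973-4704342, all on the minus strand of GRCm38.
Atp5l: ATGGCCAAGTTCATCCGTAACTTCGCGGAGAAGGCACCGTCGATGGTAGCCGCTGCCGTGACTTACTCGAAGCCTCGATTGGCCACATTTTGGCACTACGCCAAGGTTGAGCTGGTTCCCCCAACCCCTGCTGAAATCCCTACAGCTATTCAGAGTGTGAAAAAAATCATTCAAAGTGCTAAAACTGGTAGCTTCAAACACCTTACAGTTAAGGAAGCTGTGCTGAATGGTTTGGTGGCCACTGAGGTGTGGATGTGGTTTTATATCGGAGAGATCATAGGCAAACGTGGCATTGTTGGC
Ndufs5: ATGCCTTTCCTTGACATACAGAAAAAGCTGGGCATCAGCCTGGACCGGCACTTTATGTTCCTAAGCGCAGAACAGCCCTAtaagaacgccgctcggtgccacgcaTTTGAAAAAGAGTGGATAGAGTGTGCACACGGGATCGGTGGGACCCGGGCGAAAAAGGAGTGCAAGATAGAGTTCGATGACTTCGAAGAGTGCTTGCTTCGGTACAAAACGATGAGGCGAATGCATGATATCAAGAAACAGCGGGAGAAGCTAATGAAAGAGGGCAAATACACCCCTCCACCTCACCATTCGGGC
Uqcr10: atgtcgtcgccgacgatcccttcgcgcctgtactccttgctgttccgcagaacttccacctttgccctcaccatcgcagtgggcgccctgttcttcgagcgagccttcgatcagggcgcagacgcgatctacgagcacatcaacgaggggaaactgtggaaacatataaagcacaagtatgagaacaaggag
In Atp5l all 300 bases shown are capitals and in Ndufs5 275 of 300, whereas Uqcr10, at 704 TPM, has none in its 192 bases. Uqcr10 is not without a relative, however. At 95% identity over at least 50% of the coding sequence it had 1 matching gene, 4930481A15Rik, with 759 counts.

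The c-subunit genes, Atp5g2 at chr15:102662864-102672352 and Atp5g3 at chr2:73908447-73911326, both on the minus strand, differ in the same way with the same marking.
Atp5g2: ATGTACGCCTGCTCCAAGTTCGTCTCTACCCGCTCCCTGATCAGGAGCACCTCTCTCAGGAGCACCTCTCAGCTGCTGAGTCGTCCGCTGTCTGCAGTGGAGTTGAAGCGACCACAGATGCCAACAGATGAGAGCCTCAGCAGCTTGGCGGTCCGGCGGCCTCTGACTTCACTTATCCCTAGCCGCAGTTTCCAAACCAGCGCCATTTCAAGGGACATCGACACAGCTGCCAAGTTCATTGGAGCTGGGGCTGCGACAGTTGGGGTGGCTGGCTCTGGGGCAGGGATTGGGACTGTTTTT
Atp5g3: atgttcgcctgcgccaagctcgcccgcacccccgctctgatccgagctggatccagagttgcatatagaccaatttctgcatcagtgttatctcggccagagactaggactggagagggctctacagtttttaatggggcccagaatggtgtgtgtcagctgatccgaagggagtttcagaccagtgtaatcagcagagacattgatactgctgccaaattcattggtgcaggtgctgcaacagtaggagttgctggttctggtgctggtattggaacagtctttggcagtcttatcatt
All 300 bases of Atp5g2 recur elsewhere and none of Atp5g3, the highest of the 3 genes.

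Promoters of the common subunits were searched for short motifs in RefSeq windows (GRCm38.p6) of 250 bases before to 50 after the gene start. Of the 76 genes, 63 matched a window, 1 of them by another symbol, and Atp5a1, Atp5mpl, Cox4i1, Cox6c, Cyc1, Ndufa2, Ndufb9, Ndufs1, Sdhc, Uqcrb, Uqcrc2 and Uqcrq were among those with no entry. Both strands were read, each gene's first window was used, and no motif contains another. NRF1, GABP of the ETS family and YY1 are factors long studied at genes of the respiratory chain. The NRF1 core TGCGCA lay in 18 of 63 windows, 28.6%, against 8.06% of the 27025 windows of all genes and 15.7% of the 8412 of protein-coding genes above 1 CPM. The ETS motif CCGGAAG lay in 23.8%, against 9.12% of all windows and 20.7% of the expressed. The YY1 motif AAGATGG lay in 15.9%, against 6.48 and 7.89%. The NF-Y motif CCAAT lay in 41.3%, against 37.9 and 39.7%, and the E-box CACGTG in 9.52%, against 7.24 and 10.6%. For all 5 motifs the share in expressed genes lay closer to that of the subunits than did the share in all windows. A match is a description of letters and not of binding.

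Stretches of promoters of well-expressed genes that hold these motifs are shown to place them relative to the start, with TGCGCA or CTTCCGG, the reverse complement of CCGGAAG, in capitals. The Uqcrc1 stretch runs from base -1 to 50 of window chr9:108936398-108936697 on the plus strand, Ndufa8 from -35 to 31 of chr2:36049289-36049588 on the minus strand and Cox8a from -35 to 50 of chr19:7217567-7217866 on the minus strand.
Uqcrc1: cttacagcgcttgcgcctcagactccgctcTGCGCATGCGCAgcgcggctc
Ndufa8: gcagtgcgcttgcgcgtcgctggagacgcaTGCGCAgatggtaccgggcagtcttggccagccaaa
Cox8a: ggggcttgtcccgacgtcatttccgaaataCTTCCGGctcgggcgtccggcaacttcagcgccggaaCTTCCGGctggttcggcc
Uqcrc1 held 2 adjacent copies after its start, Ndufa8 1 copy close to its start and Cox8a 2 copies of the ETS motif.

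Each library was set against the other 3 by edgeR's quasi-likelihood test, in which the lone library is assumed to vary like the rest. After Benjamini-Hochberg adjustment 0 of the 84 genes that passed the filter on low counts were called, beside 0.0678% of 13279 genes for replicate 1, 0% for replicate 2, 0.00753% for replicate 3 and 0% for replicate 4, so few genes of any kind passed. At unadjusted p under 0.05 there were 23 of the 84 in replicate 1, or 27.4% beside 10.3% of all genes tested, and 25 in replicate 3, or 29.8% beside 2.39%. Replicates 2 and 4 had 3 and 1, or 3.57% beside 7.94% and 1.19% beside 1.97%. The call for replicate 1 rested on the libraries it was set against: without replicate 2, 16 of 85 members, 18.8%, were called higher in it, beside 3.86% of genes tested in either direction, and without replicate 4, 6 of 84, beside 0.673%. DESeq2 called 1, 0, 0 and 0 members in replicates 1 to 4, beside 0.61%, 0.0602%, 0.509% and 0.00753% of the genes it gave an adjusted p, with 16 and 70 members given none in replicates 1 and 3. By edgeR's goodness-of-fit test for variation between libraries beyond the trend 0 of the 84 were called, beside 0.422% of genes tested, and at unadjusted p under 0.05 there were 15, or 17.9% beside 5.8%. The median SD of log2 CPM was 0.093 for these genes and 0.090 for all tested.

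The small shifts ran one way within a library. In replicate 1, 77 of 84 genes were higher than in the other 3, with a median log2 change of 0.10, and in replicate 3, 77 of 84 were lower, with a median of -0.13. Replicates 2 and 4 had 49 and 48 of 84 higher, with medians of 0.01 and 0.02. All 5 complexes had medians above 0 in replicate 1, from 0.07 in complex II to 0.11 in complex IV, and below 0 in replicate 3, from -0.17 in complex III to -0.08 in complex II. Cox6c, a small subunit of complex IV, stood at 113, 98.4, 91.5 and 94.4 TPM, highest in replicate 1, with log2 0.26 and adjusted p = 0.142 by edgeR and 0.0478 by DESeq2. Uqcrh, the hinge protein of complex III, stood at 365, 315, 297 and 324 TPM, with log2 0.24 and adjusted p = 0.184 by edgeR. Short mRNAs moved in the same directions: the 2084 tested protein-coding genes with a transcript under 1000 bases had medians of 0.04 in replicate 1 and -0.05 in replicate 3, and the 9519 longer ones -0.01 and 0.01. Of the common subunits 76.3% have such short transcripts, against 18.2% of protein-coding genes with a count, and replicate 3 was the deepest library, and the part of either in the shifts was not tested.

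**Figure D5:**
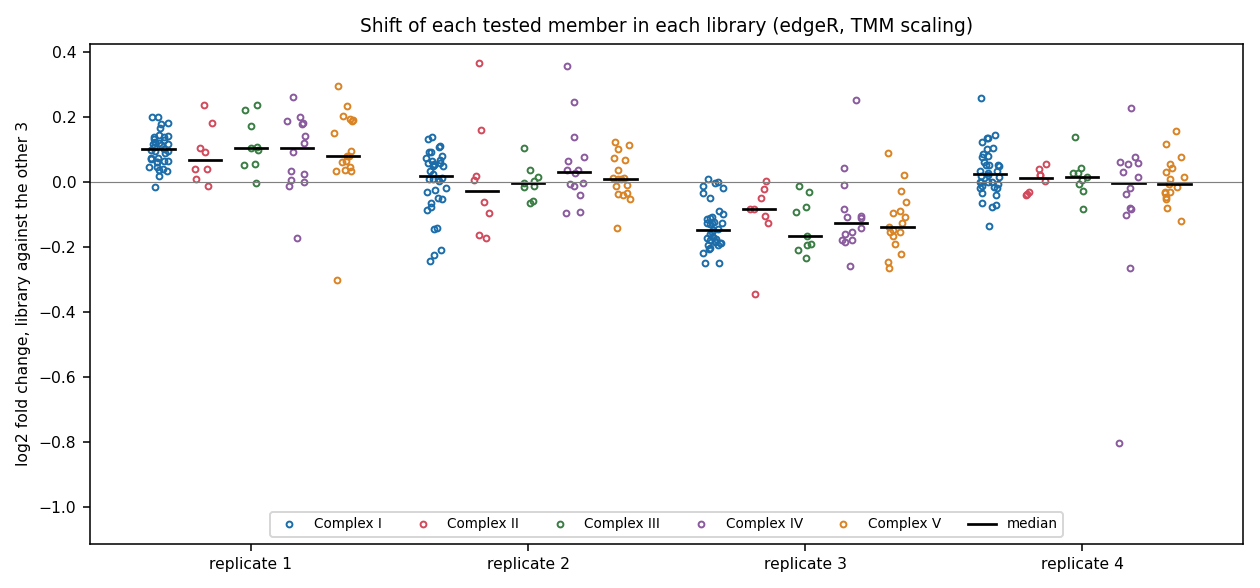
log2 fold change of each of 84 tested genes in 1 library against the other 3, by replicate and complex (edgeR, TMM scaling), with the median as a bar. Points lie mostly above 0 in replicate 1 and below 0 in replicate 3, 77 of 84 each, and the point near -0.8 in replicate 4 is Cox6a2.

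Genes that build or regulate the chain were also detected nearly in full. Of 49 assembly factors, 48 lay above 1 CPM, led by Uqcc2 at 159.9 TPM, Tmem70 at 151 TPM, Coa3 at 144 TPM and Cox14 at 121 TPM, and Pet117 had no count, with all of its exon bases inside Kat14 on the same strand. The 4 Sdhaf genes belong to both sets. Of 15 regulators 14 passed. Myc stood at 660.0 TPM, Lonp1 at 349 TPM, Yy1 at 146 TPM, Hif1a at 132 TPM and Pprc1, a relative of PGC-1, at 129 TPM. Polrmt, Gabpa, Tfam, Tfb1m, Esrra, Nrf1, Gabpb1, Tfb2m and Ppargc1b followed at 66.0, 64.8, 63.8, 49.3, 45.0, 44.4, 28.5, 16.1 and 6.09 TPM. Ppargc1a, which encodes the coactivator PGC-1 alpha, had a mean of 0.0059 CPM and lay below 1 CPM. Of 18 other mitochondrial genes, among them electron carriers, quinone-linked enzymes and the uncoupling protein Ucp2, 17 passed, with Ucp2 at 279.8 TPM, the electron carrier Etfa at 167 TPM, Aifm1 at 77.9 TPM and Coq2 at 70.9 TPM, and Cyct, the testis form of cytochrome c, lay below. Subunits or partners outside the symbol pattern, Usmg5, Higd2a, Atpif1 and Higd1a, all passed, at 438, 181, 133 and 69.3 TPM.

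The mitochondrially encoded partners were counted unevenly. Of 13, 7 passed 1 CPM: mt-Co1 at 5274 TPM, mt-Nd1 at 3085 TPM, mt-Cytb at 2861 TPM, mt-Nd2 at 1720 TPM, mt-Nd5 at 1322 TPM, mt-Nd4 at 831 TPM and mt-Nd6 at 19.2 TPM. mt-Nd3, mt-Co3 and mt-Atp6 lay below 0.02 CPM and mt-Nd4l, mt-Co2 and mt-Atp8 had no count. At least 99.0% of the coding stretches of mt-Nd3, mt-Nd4l, mt-Co2, mt-Co3 and mt-Atp6 recur in a gene elsewhere, against 8.22% for mt-Nd2 and 7.62% for mt-Nd5. The match was not complete: mt-Atp8 had no count with 0% recurring, while mt-Co1 with 51.0% and mt-Nd4 with 62.2% were counted. Of the exon bases of mt-Atp8, 21.1% overlap another gene, mt-Atp6, on the same strand. The lookup covered annotated transcripts only, so 0% does not exclude copies outside the annotation. The part of recurrence or overlap in these levels was not tested. Their summed TPM was 14718, 15112, 14896 and 15720 in replicates 1 to 4, against 22128, 21030, 20275 and 21026 for the 84 nuclear subunit genes, a ratio of 0.717 ± 0.036. By complex the ratio was 1.33 in I, 0.872 in III and 1.08 in IV, while complex V, whose mitochondrial genes are among those with next to no count, had 0.083 TPM in all. The mitochondrial sum of complex IV was nearly all mt-Co1, since mt-Co2 had no count and mt-Co3 next to none. That of complex I held next to nothing from mt-Nd3 and mt-Nd4l. With the median transcript length the ratio over all complexes fell to 0.364, so the balance rests on the length used. It also rests on which mitochondrial genes were counted.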

How the data were processed

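Raw counts of read pairs per gene were deposited for 4 libraries. Per the file headers, the authors made them with featureCounts 1.4.6-p4 from STAR alignments over GENCODE M13 exons, with both ends mapped and strand option 2. The assembly is mm10 per the labels, and no source used here gives the STAR version. From the deposited counts, CPM was computed by library total and TPM from the deposited exon length or, as an alternative, the median protein-coding transcript length. Symbols and transcripts came from GENCODE M21 and promoters from RefSeq. The members, pairs and gene lists were chosen with earlier results of these data known. All members could be named, and of each other list the 4 highest by TPM, every gene not above 1 CPM, all regulators and all mitochondrially encoded subunits.

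Levels were tested with limma 3.58.1 (log2(CPM + 0.1) against 1 CPM, trend, one-sided each way, over the 23365 genes with a count). Libraries were compared with edgeR 4.0.16 (TMM factors 0.9958 to 1.002) over 13279 genes passing filterByExpr. Pairs used an exact sign-flip test on log2(TPM + 0.1), a scale that understates ratios of low genes. DESeq2 1.42.0 was an alternative. Scripts were tested on simulated data. Near-identical genes were found with blastn 2.17.0+ at 95% identity over at least 50% of the coding sequence. Counting intervals cover counting error only. Values of 1 complex I gene are not reported here.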

Additional observations from a re-analysis of the deposited data

Results flagged for a closer look

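In 9 of 90 members with a count, the TPM of 1 library lay far from the other 3 relative to the range of all 4. Chance flags about 1 in 20 groups if they are independent, whereas these genes tended to shift together within a library. The share of all genes flagged by this rule was not computed, so no excess is read from the count. Replicate 3 was the low library for Ndufb2 at 15.72 TPM (others 17.44 to 17.71), Ndufa3 at 118.0 TPM (133.0 to 134.8) and Ndufb4 at 8.623 TPM (9.723 to 9.93), all accessory subunits of complex I. Replicate 1 was the high library for Atp5g3 at 550.0 TPM (494.7 to 502.8) and Atp5j at 146.4 TPM (129.0 to 130.0), and the low library for Atp5s at 4.598 TPM (5.619 to 5.771). Replicate 4 was the low library for Ndufs1 at 52.38 TPM (55.58 to 55.83) and Cox6a2 at 1.416 TPM (2.378 to 2.565). The pseudogene Ndufa11b had 0.06414 TPM in replicate 3, from 1 count, and none elsewhere.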

How the results depend on the processing

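Of 207 alternative values, 188 kept their direction and stayed within the limits set for them. The count above 1 CPM was 83 under every scaling, pseudocount, filter and left-out library tried, 76 at 10 CPM and 85 in TPM. With the median transcript length the median TPM was 116.01 for complex I, 221.39 for II, 160.93 for IV with its tissue-restricted genes and 286.86 for V. Without genes that have a near-identical transcript it was 151.68 for I, 249.56 for II, 333.26 for III and 412.6 for V, so V lay above III. For IV it was 7.8709, where most genes left are tissue-restricted. Without genes not above 1 CPM the median of IV was 276.33. The log2 ratio of Atp5g1 over Atp5g2 turned to 1.1802 in CPM, and that of Uqcrc1 over Uqcrc2 to 0.44944 in CPM and 1.5947 with the transcript length. For replicate 1 the number of genes called was 0 in the reported test, 3 with every gene counted at least once (Uqcrh, Uqcrq and Cox6c; 0.526% of all genes), 1 by DESeq2 (Cox6c; 0.61%), and 0 to 16 when another library was left out: 16 without replicate 2 (3.86% of all genes), 0 without replicate 3 (0.135%) and 6 without replicate 4 (0.673%). The cause was not tested. The ratio of mitochondrial to nuclear summed TPM was 0.36426 without mitochondrial genes that have a near-identical copy and 0.36365 with the transcript length, the latter chosen after seeing the data. In the last 150 bases of the window the share with NF-Y was 26.984%, against 24% of all windows, and with the E-box 3.1746%, against 4.41%, so the E-box share turned from above to below that of all windows. No paired analysis was possible because there is only 1 group. Depth limits the genes with no count to 0.0106 CPM.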
